A study of Mus musculus with 39 samples.

Results

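The second week of mouse testis organ culture was examined by comparing testes after 14 days of culture with testes after 7 days of culture. In both groups testes were taken from mice (Mus musculus, strain not given in the labels) at 7.5 days post partum (dpp), an age at which the tubules hold Sertoli cells and spermatogonia, so the cultured tissue had total ages of 21.5 and 14.5 dpp. Each group had 3 samples, each measured as total RNA on 1 single-colour Illumina bead array, and the 6 arrays were chosen by their labelled source from 39 samples in the series, 38 of which had a signal column carrying their name. Also used were 3 arrays each of culture days 6 and 9, with total ages of 13.5 and 16.5 dpp. Testes at 21.5 and 14.5 dpp in vivo, again with 3 arrays each, served for comparison. Culture days 2 and 4, with total ages of 9.5 and 11.5 dpp and 3 arrays each, are shown only in figures. All 38 arrays, from 13 groups, entered the fit that estimates the spread. Whether the replicates are separate animals or cultures is not given in the labels. The p-values measure only the spread between these samples, and that spread may be technical.

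In the first wave of mouse spermatogenesis, spermatogonia divide, enter meiosis in response to retinoic acid, and pass through the long pachytene stage as spermatocytes before the meiotic divisions yield haploid round spermatids. Pachytene spermatocytes switch on a large gene programme, including germ cell forms of glycolytic enzymes and parts of the flagellum that are used only later, and elongating spermatids then replace histones with protamines. Organ culture keeps the tubules, with their germ and Sertoli cells, beside Leydig, peritubular and endothelial cells and macrophages. The arrays therefore measure all of these together, and fewer cells of a type cannot be told apart from less RNA per cell.

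All 6 arrays detected Sox9 of Sertoli cells, Acta2 of peritubular cells and Ldhc of germ cells, which are cell types of a testis. The arrays differed in brightness before normalization. The mean signal per array was 613.5, 545 and 577.6 at day 14, against 368.1, 437 and 384 at day 7, and the share of probes detected was 42.85%, 42.06% and 43.23% at day 14, against 38.64%, 39.65% and 37.98% at day 7. Values below are log2 signals after background correction and quantile normalization, which gives every array the same distribution, and differences are day 14 minus day 7 on that scale with the standard error (SE). A gene was called when its adjusted p from limma, over the 12518 genes tested, was below 0.05 and its difference was at least 2-fold. Because quantile normalization removes any overall shift, 6 other scalings were run. Among these, that with no background correction is still quantile normalized and cannot show such a shift. A gene list is described below with the range of its median over the 7 scalings.

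At day 14, 1264 of 12518 genes were called (10.1%), of which 770 were higher (6.15%) and 494 lower (3.95%) than at day 7, and the median difference of all genes was -0.04. These shares of 6.15% and 3.95% also apply to the shorter lists below, where they are not repeated. The balance between directions followed the scaling. Of the called genes 60.9% were higher with quantile normalization, 97.3% with each array centred on its median over all probes, 96.9% when centred on ribosomal protein genes, 51.5% on genes detected on all 6 arrays, 25.5% on housekeeping genes, 79.7% with the authors' deposited values and 71.2% with no background correction. The median of all genes ran from -0.34 with housekeeping centring to 0.46 with median centring over all probes. Differences were smaller in the authors' values, with an interquartile range of -0.21 to 0.15, against -0.4 to 0.33 with quantile normalization. The 2-fold threshold is therefore stricter in the authors' values. Called in the same direction with quantile normalization, median centring and the authors' values were 287 higher (2.29%) and 21 lower genes (0.168%), and with all 7 scalings 248 higher (1.98%) and 19 lower genes (0.152%). The first principal component of the 6 arrays took up 72.5% of the variance and separated the day 14 from the day 7 arrays.

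**Figure D1:**
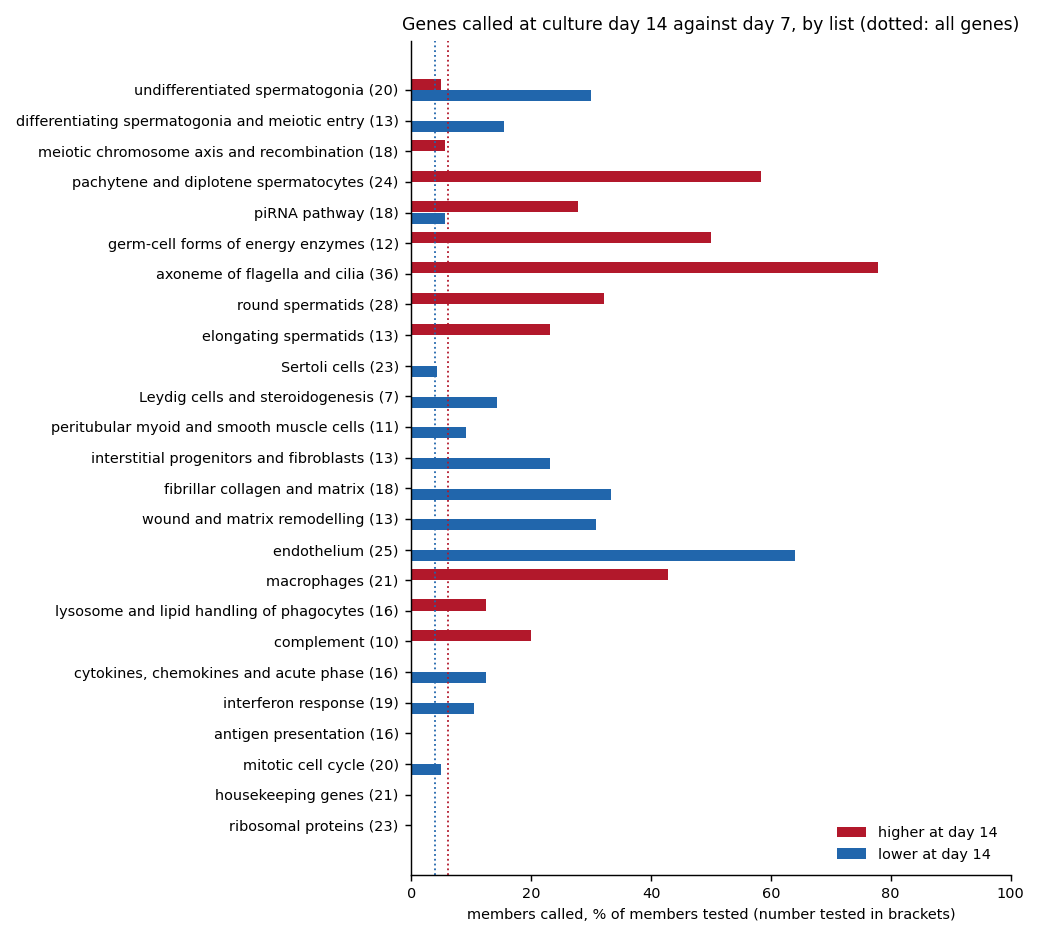
Share of the tested members of 25 gene lists that were called higher (red) or lower (blue) at culture day 14 than at day 7, in % of the members tested, with the number tested in brackets. The axoneme (77.8%) and pachytene (58.3%) lists have the longest red bars and endothelium (64%) the longest blue bar, and dotted lines mark the shares over all genes, 6.15% higher and 3.95% lower.

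Genes of pachytene and diplotene spermatocytes were higher at day 14 in 14 of 24 members tested, against 6.15% of all genes, and none was lower. Their median difference was 1.55, or 1.46 with genes undetected at day 7 taken at their bound, against -0.04 for all genes, and stayed between 1.25 and 2.05 over the 7 scalings. Pgk2, the germ cell phosphoglycerate kinase of glycolysis, had 8.66, 9.92 and 10.15 at day 14, against 4.61, 4.50 and 4.66 at day 7, where no array detected it. Every day 14 array lay above every day 7 array. The difference was at least 14.1-fold (limma adjusted p = 2.74e-06), where "at least" means that undetected values were set no lower than the dimmest detected signal on the same array. Pgk2 and Pabpc2 are retrogenes with close relatives, Pgk1 and Pabpc1, and how specific their probes are was not tested.

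Pabpc2, a germ cell poly(A)-binding protein, had 10.49, 11.73 and 12.13 at day 14, against 4.43, 4.59 and 5.07 at day 7, where it was undetected. It had the highest difference of all genes tested, at least 51.6-fold (limma adjusted p = 0.00011), and its groups lay far apart. Ccna1, the cyclin that male germ cells need to leave meiotic prophase, had 7.75, 9.31 and 9.62 at day 14, against 4.75, 4.66 and 4.69 at day 7, none of them detected. Its rise was at least 8.76-fold (limma adjusted p = 2.2e-08), and day 14 replicate 1 was the lowest of the day 14 arrays for Pgk2, Pabpc2 and Ccna1 alike. Adam3, a sperm surface protein of the ADAM family, had 9.47, 10.56 and 10.93 at day 14, against undetected values of 4.49, 4.87 and 4.63 at day 7, a rise of at least 23.6-fold (limma adjusted p = 6.14e-05).

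Other pachytene genes were already detected at day 7. Ldhc, the germ cell lactate dehydrogenase, had 14.47, 14.41 and 14.75 at day 14, against 9.59, 10.71 and 11.38 at day 7, and rose by 3.98 ± 1.34 (SE, limma adjusted p = 0.0267). Its 3 probes gave 3.83, 3.89 and 3.98. Hspa2, the testis heat shock protein of meiotic prophase, had 14.56, 14.44 and 14.74 at day 14, against 12.76, 13.48 and 13.39 at day 7, and rose by 1.37 ± 0.41 (SE, limma adjusted p = 0.0123). Piwil1, the PIWI protein of pachytene spermatocytes that is also on the piRNA list, had 13.16, 12.46 and 13.14 at day 14, against 9.93, 10.71 and 11.44 at day 7. Its groups did not overlap, but the difference of 2.23 ± 1.12 (SE) did not pass (limma adjusted p = 0.137). It passed with median centring (2.79, limma adjusted p = 0.0402). It also passed when the 6 arrays alone were normalized and gave the spread (2.21, limma adjusted p = 0.00208). The other 7 called members had fitted differences from 1.05 to 3.45, and the 9 other members that were not called ran from -0.76 to 1.54. Without any 1 of the 6 arrays the list had 10 to 14 called members.

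Promoters of 2 of these genes, both called higher with all 7 scalings, were picked because they hold a letter pattern that the MYB family binds, so they do not stand for the list. The promoters of Ccna1 and Ldhc, also called with all 7 scalings, hold none of the patterns searched, while those of Acta2, Insl3 and Rhox5, which were not called, hold the MYB pattern. MYBL1, a member of that family, is a known activator of pachytene genes. The sequences are those of RefSeq on GRCm38.p6, 300 bases each, written 5′ to 3′ on the gene's strand from 250 bases before to 50 bases after the annotated start. Capitals mark GGCNGTT (on the other strand AACNGCC) and, in Spag6l, also TGACGTCA, the cAMP response element. The promoter of Pgk2 lies at chr17:40208560-40208859 on the minus strand and that of Spag6l at chr16:16829314-16829613 on the minus strand.
Pgk2: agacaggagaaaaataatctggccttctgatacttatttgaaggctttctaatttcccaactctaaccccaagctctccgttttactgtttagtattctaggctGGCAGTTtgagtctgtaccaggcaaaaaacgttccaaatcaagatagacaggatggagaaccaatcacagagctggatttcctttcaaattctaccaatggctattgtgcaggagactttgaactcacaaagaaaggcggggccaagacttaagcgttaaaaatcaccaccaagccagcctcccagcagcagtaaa
Spag6l: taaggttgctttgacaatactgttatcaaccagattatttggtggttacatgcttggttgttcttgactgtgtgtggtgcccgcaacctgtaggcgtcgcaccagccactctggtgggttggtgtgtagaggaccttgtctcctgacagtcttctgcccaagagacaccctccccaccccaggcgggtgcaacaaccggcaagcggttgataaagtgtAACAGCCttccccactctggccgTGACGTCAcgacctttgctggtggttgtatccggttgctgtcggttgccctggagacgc
In Pgk2 the MYB pattern began at -146 from the start, and in Spag6l it began at -32 with the cAMP response element at -9.

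Both strands of every promoter of 300 bases were searched for the 3 patterns, none of which contains another. The MYB pattern was in at least 1 promoter of 24.1% of the 598 called higher genes with a promoter entry, against 16.1% of 10072 tested genes, and in 11.8% of 364 called lower genes. Of all 27025 genes with a promoter entry, tested or not, 13.6% had it. The X-box pattern of the RFX family, factors of cilium genes, was in 3.51% of called higher genes and 0.549% of called lower genes. It was in 1.28% of tested genes and 1.33% of all genes with a promoter entry. The cAMP response element, TGACGTCA, was in 3.01% of called higher genes and 2.75% of called lower genes. Its share was 3.38% of tested genes and 2.03% of all genes with a promoter entry. These shares describe letters in a window, and binding was not measured.

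Genes of the axoneme, the microtubule core of flagella and cilia, made up the list with the largest share of called members, 28 of 36 higher and 0 lower, and 4 of the 36 were undetected in both groups. The median difference was 2.21, or 1.96 with bounds, and lay between 1.07 and 2.75 over the 7 scalings. Spag6l, a central pair protein that is also on the pachytene list and has a near-identical copy, had 10.93, 11.27 and 12.02 at day 14, against 6.69, 7.21 and 7.68 at day 7. The gap between the groups was wider than the range of either, and the rise was 4.21 ± 1.18 (SE, limma adjusted p = 0.00894). Drc1, a subunit of the nexin-dynein regulatory complex that links microtubule doublets, had 8.56, 9.11 and 9.69 at day 14, against 5.14, 5.65 and 6.09 at day 7, and rose by 3.49 ± 0.72 (SE, limma adjusted p = 0.000732). Only 1 of the day 7 arrays detected it, and the other kept probe of Drc1 gave 1.36. Cfap206, a protein of radial spoke bases, rose by 3.59 ± 0.93 and Zmynd10, a factor that assembles dynein arms, by 3.43 ± 1.01 (SE, limma adjusted p = 0.00522 and 0.0122). Leaving out 1 array at a time left 22 to 27 called members. With the authors' values 19 members were called higher, against 2.38% of all genes.

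Germ cell forms of energy enzymes were higher in 6 of 12 members, against 6.15% of all genes. Of these 6, Pgk2 and Ldhc are also on the pachytene list and Pgam2 on that of round spermatids. Their median difference was 1.06 and stayed between 0.74 and 1.71 over the 7 scalings. Pgam2, a phosphoglycerate mutase, had 10.03, 10.21 and 10.78 at day 14, against 4.76, 5.42 and 5.12 at day 7, where it was undetected, a rise of at least 23.9-fold (limma adjusted p = 0.000656). Cox8c, a testis form of a cytochrome oxidase subunit, had 13.60, 13.12 and 13.62 at day 14, against values from 9.74 to 11.41 at day 7, and rose by 2.73 ± 0.84 (SE, limma adjusted p = 0.0153). Without day 14 replicate 3 or day 7 replicate 1 only 3 of the 12 were called. The 26 tested genes of oxidative phosphorylation, which all cells use, had 0 called members and a median difference of 0.20.

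Genes of the piRNA pathway, which makes small RNAs that silence transposons in germ cells, were higher in 5 of 18 members and lower in 1. Over all genes the shares were 6.15% higher and 3.95% lower. The median difference was 0.81 and stayed between 0.49 and 1.42 over the scalings. Tdrd6, a Tudor protein of the chromatoid body, had 11.67, 12.01 and 12.59 at day 14, against 6.21, 7.42 and 7.59 at day 7, and rose by 5.02 ± 1.12 (SE, limma adjusted p = 0.0015). Ddx4, the germ cell RNA helicase also called Vasa, rose by 2.05 ± 0.50 (0.78 on its other kept probe), Ddx25, a helicase of late spermatocytes and spermatids, by 1.62 ± 0.30, and Tdrd1 by 1.45 ± 0.37 (SE, limma adjusted p from 0.000281 to 0.00446). Named after their values were seen, the remaining calls were Tdrd9, a helicase of the pathway, which rose by 1.08 ± 0.31, and Piwil4, the PIWI protein of fetal germ cells, which fell by 1.08 ± 0.30 (SE, limma adjusted p = 0.00993 and 0.0082).

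**Figure D2:**
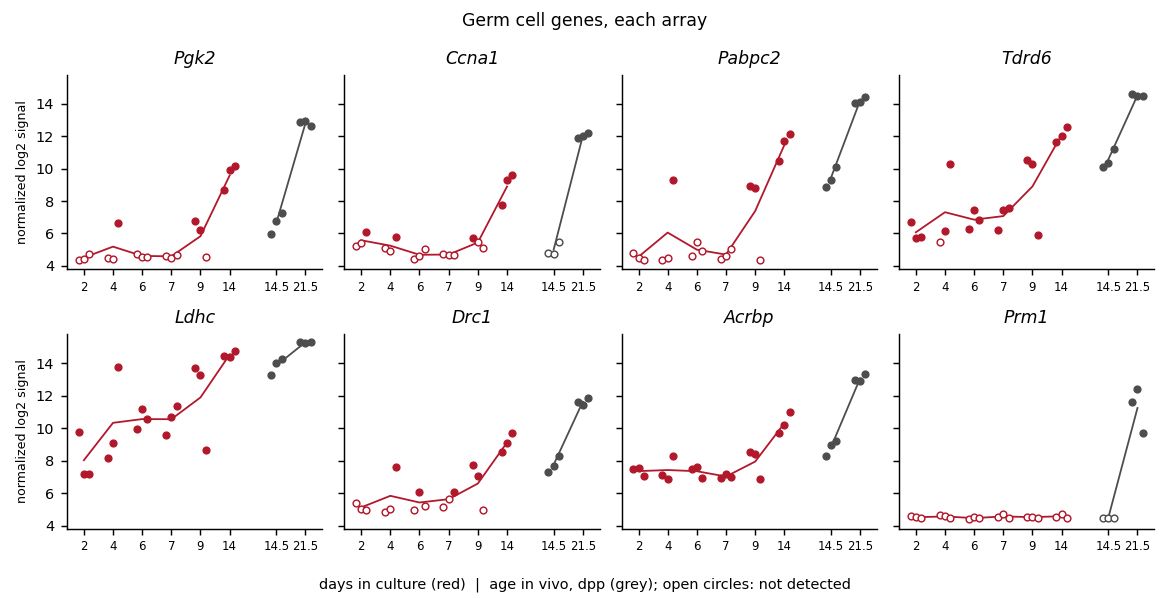
Normalized log2 signal of 8 germ cell genes on each array, by days in culture (red) and by age in vivo in dpp (grey). Points are arrays (open where not detected) and lines join group means; at culture day 14 Pgk2 lies between 8.66 and 10.15, above every other culture array, while Prm1 stays undetected on all culture arrays shown.

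Of 28 tested genes of round spermatids 9 were higher, against 6.15% of all genes, and 0 lower, and 11 were undetected in both groups. The median difference was 0.62, but it turned to -0.18 with housekeeping centring. Acrbp, a protein that packages proacrosin in the acrosome, had 9.68, 10.20 and 11.03 at day 14, against 6.91, 7.17 and 7.00 at day 7, and rose by 3.28 ± 0.50 (SE, limma adjusted p = 3.17e-05). A second kept probe for Acrbp gave 0.29 and did not pass. Zpbp2, which helps to shape the acrosome, had 7.66, 8.82 and 8.98 at day 14, against undetected values of 4.53, 5.34 and 4.68 at day 7, a rise of at least 6.63-fold (limma adjusted p = 3.05e-05). The other kept probe of Zpbp2 gave a log2 difference of 1.65. Crem, the transcription factor of post-meiotic genes, rose by 2.71 ± 0.51 on its brightest probe (SE, limma adjusted p = 0.000305), while its other 4 probes gave differences from 0.40 to 1.27. Acrv1, an acrosomal vesicle protein, had 4.64, 5.03 and 5.65 at day 14, against 4.34, 4.27 and 4.35 at day 7. It was detected on 1 of the day 14 arrays and on 0 of the day 7 arrays, and its difference of 0.79 ± 0.16 (SE) stayed under 2-fold (limma adjusted p = 0.000548).

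Elongating spermatid genes were higher in 3 of 13 members, against 6.15% of all genes, with 8 undetected in both groups. Their median difference of 0.01 lay between -0.67 and 0.12 over the scalings. With the authors' values 1 was higher, against 2.38% of all genes, and with all 7 scalings 0 were, against 1.98%. With housekeeping centring 1 was higher and 3 were lower, against 431 and 1262 of all 12518 genes. Gsg1, a germ cell membrane protein, had 6.34, 7.50 and 7.96 at day 14, against undetected values of 4.45, 4.64 and 4.72 at day 7, a rise of at least 2.85-fold (limma adjusted p = 8.9e-05), while its other kept probe, at 0.88, stayed under 2-fold. Odf2, an outer dense fibre protein that is also found at centrosomes of other cells, rose by 1.14 ± 0.34 (SE, limma adjusted p = 0.0137). Of the 5 other kept probes of Odf2, 1 gave 2.56 and 1 gave -0.26. Odf1, another outer dense fibre protein, was called at least 1.18-fold higher, although day 14 replicate 1 lay at 5.20 and day 7 replicate 3 at 5.23, so that the groups overlapped. Prm1, the first protamine, had 4.54, 4.71 and 4.48 at day 14, against 4.53, 4.70 and 4.46 at day 7, and Tnp1, a transition protein that precedes the protamines, lay between 4.71 and 5.12 at day 14 and between 5.11 and 5.54 at day 7. None of the 6 arrays detected Prm1 or Tnp1. Without 1 array at a time, the called members numbered 6 to 12 for round and 1 to 3 for elongating spermatids, with 1 elongating member left without day 14 replicate 3 or day 7 replicate 1.

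Of 18 genes of the meiotic chromosome axis and recombination only 1 was called, and it was higher (5.56%, against 6.15% of all genes). This was Spo11, the enzyme that makes meiotic DNA breaks. It had 11.35, 11.01 and 11.74 at day 14, against 8.82, 10.00 and 9.79 at day 7, a rise of 1.83 ± 0.47 (SE, limma adjusted p = 0.00468). With median centring 8 of the 18 were higher, against 18.7% of all genes. The list median was 0.38 and stayed between 0.20 and 1.02 over the scalings. Meiob, a recombination protein, had overlapping groups, 10.23, 10.68 and 11.05 at day 14 and 9.28, 10.20 and 10.57 at day 7 (0.64 ± 0.50, SE, limma adjusted p = 0.359).

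Of 13 genes of differentiating spermatogonia and meiotic entry 2 were lower and 0 higher, against 3.95% and 6.15% of all genes. Sohlh1, a transcription factor of differentiating spermatogonia, had 10.91, 10.60 and 10.37 at day 14, against 12.15, 12.29 and 12.23 at day 7, and fell by 1.60 ± 0.21 (SE, limma adjusted p = 3.61e-06). With median centring its difference was -0.99, just short of 2-fold. Stra8, the gene that retinoic acid induces at meiotic entry, had 5.91, 6.41 and 5.66 at day 14, against 7.51, 7.05 and 6.68 at day 7, and fell by 1.09 ± 0.34 (SE, limma adjusted p = 0.0164). Its call was lost with median centring (-0.47) and in the authors' values (-0.34). Kit, the receptor of differentiating spermatogonia, had -0.64 ± 0.36 (SE, limma adjusted p = 0.187). The list median was -0.24 with quantile normalization and 0.39 with median centring, and 1 to 4 members were lower when 1 array was left out, with 1 without day 14 replicate 3 or day 7 replicate 1 and 4 without day 7 replicate 2.

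Undifferentiated spermatogonia, the pool that holds the stem cells, had 6 lower (30%) and 1 higher (5%) of 20 members. Of all genes 3.95% were lower and 6.15% higher. Upp1, a uridine phosphorylase, had 8.21, 7.70 and 7.42 at day 14, against 9.66, 9.63 and 9.52 at day 7, and fell by 1.83 ± 0.33 (SE, limma adjusted p = 0.000177), the only member called with all 7 scalings. Bcl6b, a transcription factor, fell by 1.73 ± 0.30 and Mcam, an adhesion molecule, by 1.46 ± 0.26 (SE, limma adjusted p = 0.000117 and 0.000151), and both are also known from endothelial cells. Id4, a stem cell gene that is also made in other testis cells, had 7.83, 7.53 and 7.88 at day 14, against undetected values of 5.21, 5.61 and 5.79 at day 7, with a rise of at least 3.97-fold (limma adjusted p = 0.000343). Zbtb16, known as PLZF, had overlapping groups and a difference of -0.23 ± 0.23 (SE, limma adjusted p = 0.499). The list median was -0.61 with quantile normalization and 0.00 with median centring, and only 1 of the 6 falls was also called in both the median-centred and the authors' values.

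Endothelial genes were lower at day 14. Of 25 members tested 16 fell, against 3.95% of all genes, 0 were higher, and in 22 every day 14 array lay below every day 7 array, as in 27.6% of all genes. Their median difference was -1.47 and stayed between -1.61 and -0.73 over the 7 scalings. Gpihbp1, the capillary anchor of lipoprotein lipase, had 6.56, 8.20 and 7.70 at day 14, against 10.54, 10.84 and 10.46 at day 7, and fell by 3.13 ± 0.40 (SE, limma adjusted p = 2.74e-06), the lowest difference of all genes tested. Day 14 replicate 1 was the lowest array for Gpihbp1, Cldn5 and Icam2. Cldn5, the tight junction claudin of endothelium, had 6.75, 8.33 and 7.91 at day 14, against 10.09, 10.41 and 9.96 at day 7, and fell by 2.49 ± 0.32 (SE, limma adjusted p = 2.53e-06).

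Cdh5, the cadherin of endothelial junctions, had 7.57, 7.56 and 7.53 at day 14, against 9.92, 10.30 and 9.41 at day 7, with almost no spread among the day 14 arrays. It fell by 2.32 ± 0.29 (SE, limma adjusted p = 2.28e-06). Icam2, an adhesion molecule of endothelium, fell by 2.61 ± 0.34, Gja4, a connexin of arterial endothelium that was not on the list, by 2.59 ± 0.37, and Esam, an endothelial adhesion molecule, by 2.17 ± 0.26 (SE, limma adjusted p from 1.32e-06 to 1.25e-05). Pecam1, the pan-endothelial CD31, had 6.20, 7.82 and 7.23 at day 14, against 8.47, 8.90 and 8.28 at day 7, and fell by 1.47 ± 0.31 (SE, limma adjusted p = 0.000998). With median centring the difference of Pecam1 was -0.79 and not called. Of the list, 7 members were called lower with all 7 scalings, against 0.152% of all genes, and 15 to 18 were called without any 1 array. With median centring 11 members were lower, against 0.519% of all genes, and with the authors' values 8, against 0.607%.

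**Figure D3:**
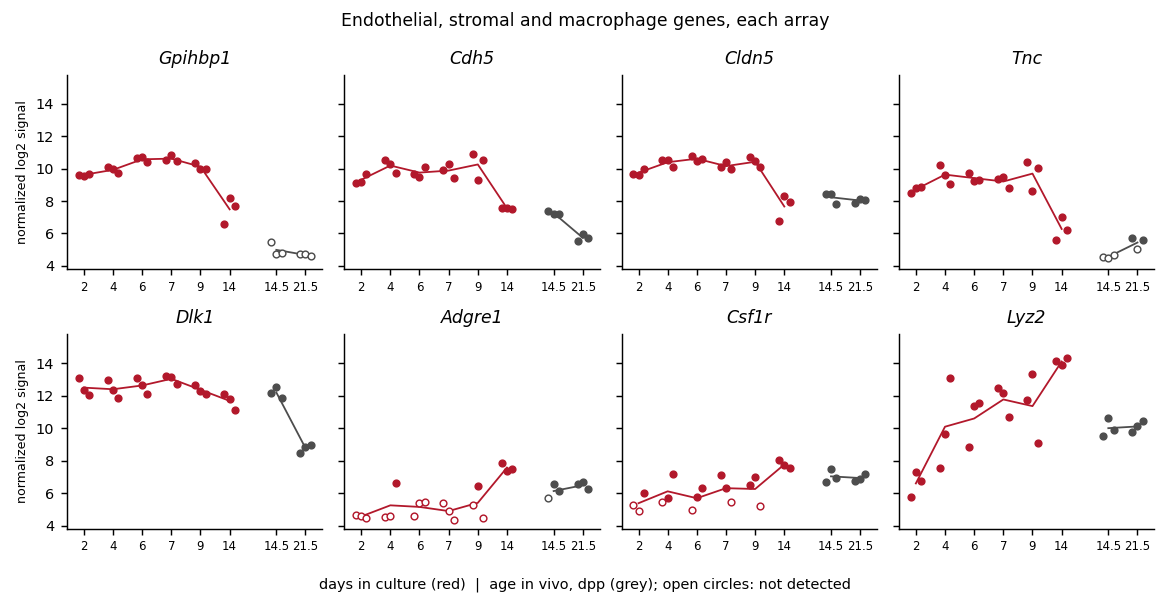
Normalized log2 signal of 8 endothelial, stromal and macrophage genes on each array, by days in culture (red) and age in vivo in dpp (grey). Points are arrays (open where not detected) and lines join group means; Gpihbp1 lies between 6.56 and 8.20 at culture day 14 and between 10.46 and 10.84 at day 7, while Adgre1 lies between 7.38 and 7.86 at day 14 and is undetected at day 7.

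Of 18 collagen and matrix genes 6 fell and 0 rose, against 3.95% and 6.15% of all genes. The list median was -0.87, between -1.05 and -0.26 over the scalings. Tnc, the matrix glycoprotein tenascin C, had 5.59, 7.00 and 6.24 at day 14, against 9.36, 9.46 and 8.79 at day 7, and fell by 2.93 ± 0.34 (SE, limma adjusted p = 4.81e-07). It was the only member of the list called with all 7 scalings. Lox, which cross-links collagen, fell by 1.29 ± 0.31, and Col1a1, the main fibrillar collagen, by 1.01 ± 0.36 (SE, limma adjusted p = 0.00312 and 0.0375), and with median centring their differences were -0.60 and -0.38 and not called. Without 1 array at a time the list had 3 to 6 lower members, the fewest without day 14 replicate 1.

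Of 13 genes of wound and matrix remodelling 4 were lower, against 3.95% of all genes. The list median was -0.89, between -1.04 and -0.24 over the scalings. Timp1, an inhibitor of matrix proteases, had 9.10, 9.45 and 9.33 at day 14, against 10.58, 10.96 and 10.95 at day 7, and fell by 1.54 ± 0.45 (SE, limma adjusted p = 0.0121). The metalloproteases Mmp2 and Mmp14 fell by 1.45 ± 0.38 and by 1.21 ± 0.20 (SE, limma adjusted p = 0.0056 and 8.31e-05). With median centring none of the 13 was called.

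Interstitial progenitor and fibroblast genes were lower in 3 of 13 members, against 3.95% of all genes. Pdgfrb, the growth factor receptor of perivascular cells, had 5.65, 6.14 and 5.61 at day 14, against 8.24, 8.40 and 7.75 at day 7, and fell by 2.33 ± 0.34 (SE, limma adjusted p = 1.48e-05). Dlk1, a Notch-related protein of immature interstitial cells, had 12.13, 11.81 and 11.14 at day 14, against 13.22, 13.17 and 12.76 at day 7, and fell by 1.36 ± 0.31 (SE, limma adjusted p = 0.00177). The list median was -0.49 with quantile normalization and 0.13 with median centring.

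Sertoli, Leydig and peritubular lists each had 1 called member. Of 23 Sertoli cell genes, Gata4, a transcription factor shared with Leydig cells, fell by 1.52 ± 0.38 (SE, limma adjusted p = 0.00351), and the list median was -0.02, between -0.20 and 0.60 over the scalings. Sox9, the transcription factor that defines Sertoli cells, had 12.63, 13.30 and 12.86 at day 14, against 13.21, 13.07 and 12.94 at day 7, with overlapping groups (-0.14 ± 0.28, SE, limma adjusted p = 0.738, and 0.34 with median centring). Amh, the hormone of immature Sertoli cells, also overlapped, with 8.43, 8.07 and 7.61 at day 14 and 9.57, 8.17 and 8.80 at day 7 (-0.81 ± 0.49, SE, limma adjusted p = 0.223). Rhox5, an androgen-regulated homeobox gene, had 0.86 ± 0.47 (SE, limma adjusted p = 0.174), and its day 7 replicate 2 lay at 8.96 beside 11.33 and 10.94.

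Of 7 Leydig cell genes, Hsd17b3, the enzyme that makes testosterone, had 6.57, 4.97 and 6.58 at day 14, against 8.55, 7.18 and 8.68 at day 7, and fell by 2.10 ± 0.55 (SE, limma adjusted p = 0.00569). The replicate 2 arrays were the lowest of both groups, and without day 14 replicate 2 the call was lost. Star, which brings cholesterol into mitochondria, was undetected on all 6 arrays, and Cyp17a1 and Insl3 had differences of 0.52 ± 0.87 and 0.51 ± 0.34 (SE, limma adjusted p = 0.703 and 0.272). Of 11 peritubular genes, Smtn, a smooth muscle protein, fell by 1.07 ± 0.22 (SE, limma adjusted p = 0.000821), a call lost without day 14 replicate 3 and not shared by its 2 other kept probes (-0.86 and -0.81), while Acta2, smooth muscle actin, had 14.33, 14.23 and 14.26 at day 14, against 14.33, 14.27 and 14.45 at day 7 (-0.08 ± 0.14, SE, limma adjusted p = 0.723).

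Macrophage genes were higher in 9 of 21 members, against 6.15% of all genes, with 0 lower and a median difference of 1.40 that stayed between 0.55 and 2.00 over the scalings. The count was 16 with median centring, against 18.7% of all genes, and 4 with the authors' values, against 2.38%. It was 3 with both and quantile normalization, against 2.29%, and 1 with all 7 scalings, against 1.98%. It also depended on single arrays. The median log2 signal over the list was 8.58, 7.81 and 7.65 at day 14, against 7.44, 6.95 and 5.33 at day 7. Without day 7 replicate 3, the lowest of these, 2 of 21 members were called higher, against 752 of all 12518 genes. Without day 14 replicate 1 or replicate 2 the number was 5, against 800 and 765 of all 12518 genes. Adgre1, the macrophage surface protein F4/80, had 7.86, 7.38 and 7.49 at day 14, against undetected values of 5.42, 4.91 and 4.36 at day 7, and rose at least 3.52-fold (limma adjusted p = 8.9e-05). Other kept probes of Adgre1 gave log2 differences of 1.02 and 2.50. In the authors' values its difference of 0.78 stayed under 2-fold (limma adjusted p = 5.26e-06). Lyz2, the lysozyme of macrophages, had 14.15, 13.88 and 14.32 at day 14, against 12.46, 12.18 and 10.69 at day 7, and rose by 2.34 ± 0.89 (SE, limma adjusted p = 0.0484). The call of Lyz2 was lost with the replicate number as a block within these groups (limma adjusted p = 0.0561). Csf1r, the receptor for the macrophage growth factor, had 8.04, 7.73 and 7.53 at day 14, against 7.10, 6.34 and 5.47 at day 7, and rose by 1.46 ± 0.43 (SE, limma adjusted p = 0.0121). In all 3 genes day 7 replicate 3 was the lowest array. Gpnmb, a glycoprotein of lipid-laden macrophages, had 11.70, 11.72 and 12.48 at day 14, against 11.30, 11.71 and 10.40 at day 7 (0.83 ± 0.56, SE, limma adjusted p = 0.279). The other kept probe of Gpnmb passed, at 1.73 (limma adjusted p = 0.0131 over all kept probes), and the probe used passed with median centring, at 1.45.

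Of 10 complement genes the 2 called were C1qa and C1qb, macrophage products that are also on the macrophage list, which rose by 1.67 ± 0.54 and 2.11 ± 0.78 (SE, limma adjusted p = 0.022 and 0.0427). Neither was called without day 7 replicate 3, and likewise neither without day 14 replicate 1 or 2. Of 16 genes of lysosomes and lipid handling 2 rose, Fabp5, a fatty acid binding protein, at least 1.21-fold and Lipa, the lysosomal lipase, by 1.13 ± 0.25 on its brighter probe, with 0.71 on the other (SE, limma adjusted p = 6.18e-06 and 0.00119), and 1 of the 16 was called without day 7 replicate 3. Among T, B, NK and mast cell genes 1 of 8 was lower, Cd3e of the T cell receptor complex, a call lost without day 14 replicate 3 or day 7 replicate 1, and 5 were undetected in both groups.

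Cytokine and chemokine genes were lower in 2 of 16 members, against 3.95% of all genes. Their median was -0.71, or -0.51 with bounds, between -1.01 and -0.21 over the scalings. Ccl7, a chemokine for monocytes, had 5.30, 5.24 and 5.19 at day 14, where it was undetected, against 5.45, 8.25 and 6.86 at day 7, and fell by at least 2.76-fold (limma adjusted p = 0.014). Ccl2, another monocyte chemokine, was undetected at day 14 and fell at least 1.53-fold (limma adjusted p = 0.0259). Day 7 replicate 2 was the highest array for both, and without it 0 of 16 were called, against 5 without day 7 replicate 1. Saa3, an acute phase protein, had overlapping groups, with 8.39, 8.69 and 9.81 at day 14 and 9.42, 10.28 and 10.61 at day 7 (-1.14 ± 0.67, SE, limma adjusted p = 0.209). Of 19 interferon response genes, Isg15 and Gbp2 fell by 1.06 ± 0.39 and 1.11 ± 0.34 (SE, limma adjusted p = 0.0392 and 0.0147), and 0 of 16 antigen presentation genes were called. Neither interferon gene was called without day 14 replicate 3 or day 7 replicate 2.

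The remaining lists held few calls. Of 20 mitotic cell cycle genes only Ccne1, cyclin E1, was lower (-1.02 ± 0.24, SE, limma adjusted p = 0.00209), and the list median was 0.02. Car12, a carbonic anhydrase induced by low oxygen, had 6.37, 8.26 and 8.17 at day 14, against 10.56, 10.27 and 10.36 at day 7, and fell by 2.80 ± 0.44 (SE, limma adjusted p = 4.02e-05). It was the only one called of 15 genes of glycolysis and hypoxia. Hmox1, haem oxygenase, fell by 1.02 ± 0.31 and Phlda3, a p53 target, by 1.27 ± 0.31 (SE, limma adjusted p = 0.0153 and 0.00299), each the only call on its list of 13 and 12 genes. The other kept probe of Phlda3 gave 0.0077. Alas2, an enzyme of haem synthesis in red cells, was higher by at least 2.04-fold (limma adjusted p = 0.00648). The call was lost for Ccne1 without day 14 replicate 1 or day 7 replicate 3, for Hmox1 without day 14 replicate 2 or day 7 replicate 1, and for Alas2 without day 14 replicate 3. None of 23 ribosomal protein genes, 21 housekeeping genes, 13 cholesterol synthesis genes or 7 genes of rete testis and epididymis was called with quantile normalization. The housekeeping entry Gpi1 was matched through a synonym to Pigq, so Pigq stands among the 21 and in the housekeeping centring. Actb and Gapdh, common reference genes, had 0.02 ± 0.23 and -0.70 ± 0.18 (SE, limma adjusted p = 0.956 and 0.00461), and with median centring the values were 0.53 and -0.15. Other kept probes of Actb gave -0.08, 0.03, -0.24 and -1.24, and only that with -1.24 passed (limma adjusted p = 0.00804 over all kept probes).

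**Figure D4:**
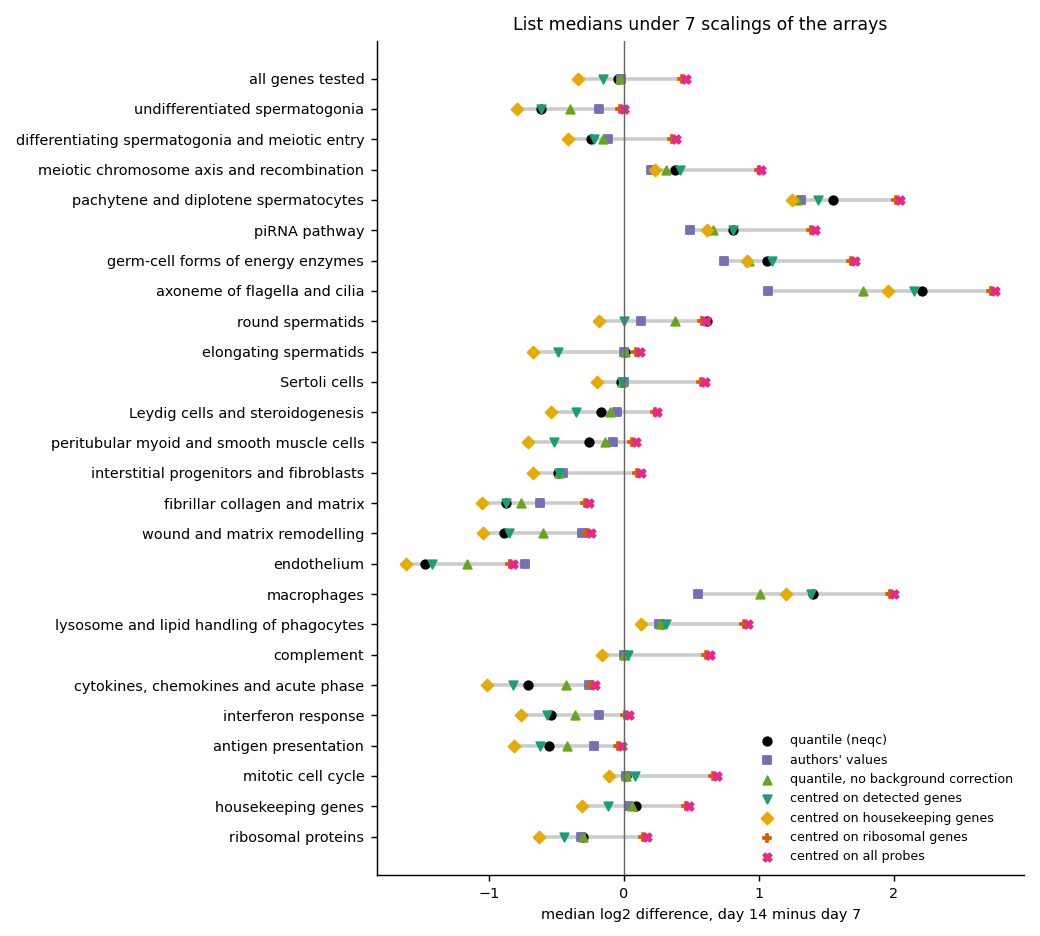
Median log2 difference, culture day 14 minus day 7, of all genes tested and of 25 gene lists under 7 scalings of the arrays, 1 symbol per scaling. The pachytene, axoneme, energy enzyme, piRNA and macrophage medians lie above 0 and the endothelium, collagen and wound medians below 0 under every scaling plotted, while those of round spermatids, Sertoli cells and interstitial progenitors lie on both sides of 0.

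Several genes outside the lists were among the 15 highest of those called with the quantile, median-centred and authors' values alike. Pebp4, a phosphatidylethanolamine binding protein, had 10.61, 11.32 and 11.69 at day 14, against undetected values of 4.77, 5.01 and 5.17 at day 7, a rise of at least 43.7-fold (limma adjusted p = 0.000343). Plaat5 rose at least 35.7-fold on its brightest probe, while 1 of its other 2 gave 0.34, Hspb9, a small heat shock protein of the testis, at least 31.9-fold, and Atp8b3, a phospholipid flippase of the acrosome, at least 25.5-fold (limma adjusted p from 3.15e-05 to 0.000281). On other kept probes the log2 differences were 2.04 and 4.26 for Pebp4, 4.52 for Hspb9, and 1.27, 1.605 and 4.63 for Atp8b3. Adam32 and Adam5, like Adam3 members of the sperm ADAM family, rose by 5.55 ± 1.10 and 5.22 ± 1.18 (SE, limma adjusted p = 0.000499 and 0.00172). Qrich2, needed for sperm flagella, Spink2, an acrosomal protease inhibitor, and Clec2m rose by 5.13 ± 1.02, 5.0 ± 1.06 and 5.09 ± 1.07 (SE, limma adjusted p from 0.000524 to 0.000972). The transcript 1700001J11Rik rose by 5.11 ± 0.68, and Pbp2, Gm5878 and Tcp10a by 4.76, 4.76 and 4.73 (limma adjusted p from 5.05e-06 to 0.00162). Tcp10a belongs to a family of near-identical copies, and which copy its probe measured is uncertain.

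Of the 15 lowest genes chosen in the same way, 7 were endothelial list members and 6 were on none of the lists. Pramel4, of a multigene family whose copies a probe may not tell apart, had 7.26, 6.85 and 6.80 at day 14, against 9.34, 9.59 and 9.82 at day 7, and fell by 2.62 ± 0.45 (SE, limma adjusted p = 0.000108). Fscn1, the actin bundler fascin, had 7.98, 7.89 and 7.85 at day 14, against 10.05, 10.64 and 10.20 at day 7, and fell by 2.39 ± 0.34 (SE, limma adjusted p = 1.23e-05). Tubb2b, a beta tubulin, fell by 2.33 ± 0.33 on its brightest probe, Adcy4, an adenylate cyclase, by 2.25 ± 0.23, and Igfbp5, an IGF binding protein, by 2.00 ± 0.48 (SE, limma adjusted p from 6.42e-08 to 0.00293). The 4 other kept probes of Tubb2b gave -0.05, -0.14, -0.54 and -1.55, and only that with -1.55 passed. Sox7 and Mmrn2, both on the endothelial list, fell by 2.18 ± 0.37 and 2.24 ± 0.30 (SE, limma adjusted p = 0.00011 and 5.05e-06). Other kept probes of Sox7 gave -0.85 and -2.15.

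Neighbouring culture times place the changes. Set against culture day 6 in place of day 7, 760 genes were higher (6.07%) and 563 lower (4.5%) at day 14, among them 16 of 24 pachytene, 26 of 36 axoneme and 9 of 28 round spermatid members higher and 19 of 25 endothelial members lower. Between day 7 and day 6 themselves 117 genes were higher (0.935%) and 233 lower (1.86%), with 0 pachytene members called and 2 endothelial members lower. Day 14 shares its arrays in both comparisons, so the counts are not independent. At day 9 the 3 arrays stood apart from each other for germ cell genes. Pgk2 had 6.78, 6.19 and 4.52, Ldhc 13.74, 13.31 and 8.66, and Tdrd6 10.55, 10.27 and 5.90 in day 9 replicates 1, 2 and 3. In replicates 1 and 2 these values lay between those of day 14 and day 7, and in replicate 3 they lay within or below the range of day 7. For Gpihbp1 the day 9 arrays had 10.37, 10.00 and 9.98, all above the 3 day 14 arrays. Leaving day 9 replicate 3 out of the fit gave 1272 called genes at day 14 against day 7.

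The change over the same ages differed between culture and in vivo testes in many genes. The difference of changes, culture day 14 minus day 7 against in vivo 21.5 minus 14.5 dpp, was called in 3387 genes, 1858 with a higher change in culture (14.8%) and 1529 with a lower one (12.2%). Of these 54.9% were higher, against 78.8% with median centring and 44.6% in the authors' values. All 13 elongating spermatid genes and 19 of 28 round spermatid genes had a lower change in culture, as did 6 of 24 pachytene and 9 of 36 axoneme genes. Of these, 11 elongating, 17 round spermatid, 3 pachytene and 7 axoneme genes were undetected in at least 1 of the 4 groups, so their fitted differences are not sizes. Prm1, undetected on the culture arrays, had in vivo 11.60, 12.44 and 9.70 at 21.5 dpp, against undetected values of 4.47, 4.48 and 4.49 at 14.5 dpp, an in vivo rise of at least 48.5-fold, and its difference of changes was called (limma adjusted p = 1.64e-13). Acrv1 had 11.60, 11.96 and 11.69 at 21.5 dpp, against 4.42, 4.39 and 4.46 at 14.5 dpp, where it was undetected, an in vivo rise of at least 68.8-fold, and its difference of changes was called (limma adjusted p = 3.33e-21). No size is given for these differences of changes, since Prm1 was undetected in 3 and Acrv1 in 2 of the 4 groups they compare. For Pgk2, which had 12.85, 12.93 and 12.62 at 21.5 dpp, against 5.95, 6.74 and 7.25 at 14.5 dpp, the difference of changes did not pass (limma adjusted p = 0.322), although it did in the authors' values. Pgk2 was undetected at culture day 7.

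Sertoli cell genes had a higher change in culture in 10 of 23 members and a lower one in 0, and interstitial progenitor genes in 7 of 13 and 1. The shares over all genes were 14.8% higher and 12.2% lower. Housekeeping genes also had a higher change in 6 of 21 members and a lower one in 0, with medians of 0.09 in culture and -0.87 in vivo. Sox9, whose culture groups overlapped, had 11.34, 10.83 and 11.41 at 21.5 dpp, against 13.15, 13.22 and 13.22 at 14.5 dpp, and its difference of changes was 1.86 ± 0.39 (SE, limma adjusted p = 0.000372). Dlk1, which fell in culture, had 8.49, 8.88 and 8.98 at 21.5 dpp, against 12.19, 12.56 and 11.88 at 14.5 dpp, a difference of 2.07 ± 0.44 (SE, limma adjusted p = 0.000388). Endothelial genes had a lower change in culture in 10 of 25 members, 4 of them undetected in at least 1 group, and a higher one in 0. The endothelial median was -1.47 in culture and -0.55 in vivo, against -0.04 and -0.34 for all genes. Macrophage genes had a higher change in 5 of 21 members and a lower one in 1, with medians of 1.40 in culture and -0.05 in vivo.

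**Figure D5:**
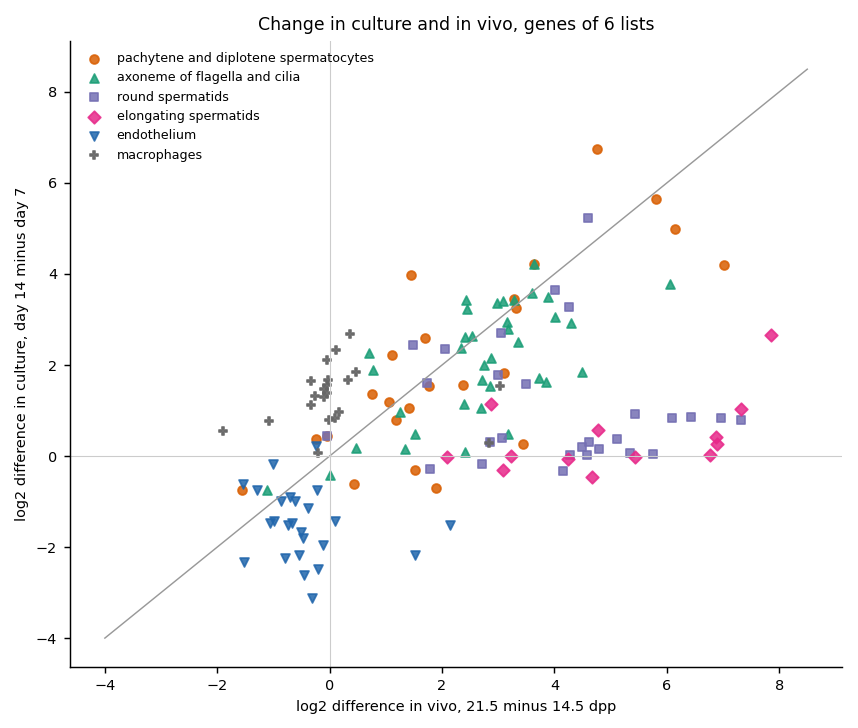
Log2 difference in culture (day 14 minus day 7, vertical axis) against the log2 difference in vivo (21.5 minus 14.5 dpp, horizontal axis) for the genes of 6 lists, 1 point per gene, with the line of equal change in grey. Many round and elongating spermatid genes extend to the right close to 0 on the vertical axis, while 9 of 28 round spermatid genes were called higher in culture. Many pachytene and axoneme genes lie near the line, and endothelial genes lie mostly below 0 in culture.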

How the data were processed

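Total RNA of mouse testes was measured on Illumina bead arrays. The table used holds intensity values that are not normalized and a detection p-value for each probe, as deposited by the authors. The alternative is the table of log2 values deposited by the authors, which per the submitters' processing notes were made with lumi. No aligner or genome build applies to these arrays. Signal columns were matched to samples by name, and 2 columns that match no sample were not used.

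In R 4.3.3 with limma 3.58.1, intensities were background-corrected from control levels inferred from the detection p-values, offset by 16 and quantile normalized (neqc). Probes with a detection p below 0.01 on at least 3 arrays were kept (23665 of 45281), of which 19924 had 1 gene symbol in the platform annotation. In that annotation 34885 probes have 1 symbol, 18 have several and 10378 have none, and only the first kind were used. For 4961 genes with more than 1 kept probe, the probe with the highest mean was used, which left 12518 genes. limma's linear model held 13 group means over 38 arrays (25 residual degrees of freedom), with an intensity trend and Benjamini-Hochberg adjustment, and the same code was tested on simulated data. The number of arrays limits the precision.

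Genes are named by a rule: the 15 highest and 15 lowest called with 3 scalings, up to 4 called members of each list with the largest differences, and a fixed set of markers. Members, lists and this rule were chosen with earlier results of these data known. Samples with the same replicate number deviated together across the compared groups (correlations of residuals of 0.457, 0.347 and 0.398 for numbers 1, 2 and 3), so a fit with the replicate number as a block was run as an alternative. Other alternatives were 6 scalings, other probe filters, no fold threshold, other culture times as the earlier time, and leaving out each array. Sycp3 and Mki67 were on the fixed set but not among the genes tested.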

Additional observations from a re-analysis of the deposited data

Results flagged for a closer look

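The change over time differed between cultured and in vivo testes by a test of the difference itself. The difference of changes is (culture day 14 minus day 7) minus (in vivo 21.5 minus 14.5 dpp), on the log2 scale, from the same limma model. It was called higher in culture for 1858 genes and lower for 1529 genes. Of the 106 genes named by the rule 30 were called, 24 of them also with median centring, 21 also with the authors' values and 20 with both. In 13 of the 30 at least 1 of the 4 groups was undetected on all its arrays. Their fitted values depend on the background level there, are not sizes, and have no order. The values describe changes, not levels: Gpihbp1, for example, was detected on all arrays at culture day 14 and on none at 21.5 dpp in vivo.

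A lower change in culture was called for 19 of 28 round and all 13 elongating spermatid genes, against 12.2% of all genes. Among those with undetected groups, the fitted value was -6.75 for Prm1, -6.54 for Acrv1, -6.28 for Odf1, -5.20 for Gsg1 and -5.12 for Tnp1. It was -2.82 for the cyclin Ccna1 of the pachytene list, which also had undetected groups. The in vivo rise over 14.5 dpp, where these genes were undetected, was at least 48.5-fold for Prm1, 68.8-fold for Acrv1, 103-fold for Odf1, 120-fold for Gsg1, 20.1-fold for Tnp1 and 82.6-fold for Ccna1. Odf2, detected in all 4 groups, had -1.73. All of these were also called with median centring, and likewise in the authors' values. The round spermatid genes Acrbp, Zpbp2, Crem and Pgam2, which rose in culture, were not called, with -0.97, -0.36, -0.35 and 0.63. Zpbp2 and Pgam2 were undetected at culture day 7, so their values are not sizes. In the authors' values Acrbp, Zpbp2 and Crem were called lower.

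Of 25 endothelial list members tested, 10 had a called lower change in culture, against 12.2% of all genes. The named ones among them were Sox7 at -3.70, Cldn5 at -2.29, Icam2 at -2.15, Esam at -1.62 and Mmrn2 at -1.45. The value of Sox7 joins a fall of 2.18 in culture and a rise of 1.52 in vivo, while the others fell in vivo. Gpihbp1, with both in vivo groups undetected, was also called, with a fitted -2.81. Gja4 and Adcy4, which are not on that list, had -1.87 and -1.03. Of these, Mmrn2 and Adcy4 were called with neither median centring nor the authors' values. Cdh5 and Pecam1, also on the endothelial list, had -0.80 each and were not called (limma adjusted p = 0.127 and 0.155). With median centring they had -0.23 and -0.21, and in the authors' values only Cdh5 was called, at -1.13. Matrix, stromal and other genes with negative values were Tnc at -3.81, Car12 at -3.50, Pdgfrb at -1.77, Fscn1 at -1.56 and Bcl6b at -1.30. Tnc and Car12 were undetected at 14.5 dpp and Pdgfrb in both in vivo groups. Pdgfrb and Bcl6b were called with neither of these, and Fscn1 was not called with median centring. The Leydig cell enzymes Cyp17a1 and Hsd17b3 had -3.35 ± 1.24 and -2.08 ± 0.78 (SE), and Hsd17b3 was called with neither median centring nor the authors' values. The 14.5 dpp arrays of Cyp17a1 stood apart, at 7.42, 11.44 and 7.67. Insl3, at -0.41, was not called, and Star was undetected in 3 of the 4 groups.

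Positive values were found for the macrophage genes Adgre1 and Csf1r (2.32 and 1.57), for Lipa and Fabp5 (1.90 and 1.73), and for Dlk1 (2.07), Sox9 (1.86), Id4 (1.58) and Acta2 (1.30). Adgre1, Id4 and Fabp5 were undetected at culture day 7, and Fabp5 also in vivo. Adgre1, Csf1r, Fabp5 and Id4 were not called with the authors' values. Whether cell number or RNA per cell moved with these values was not tested.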

How the results depend on the processing

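The number of called genes, and most of all its split, depended on the scaling. Against 1264 genes, 770 higher and 494 lower at day 14, median centring gave 2406 (2341 higher, 65 lower), ribosomal centring 2115 (2049 higher, 66 lower), the authors' values 374 (298 higher, 76 lower) and no background correction 706 (503 higher, 203 lower). Housekeeping centring gave 431 higher and 1262 lower. Without the fold threshold 3490 genes passed (1720 higher, 1770 lower). The difference of changes was called in 5291 genes with median centring and in 1664 with the authors' values, against 3387. Leaving out 1 array gave 1011 to 1324 called genes (616 to 800 higher, 395 to 544 lower) and 3146 to 3482 for the difference of changes. With the replicate number as a block 1280 genes were called at day 14, including all 1264, and 3415 for the difference of changes, and no call of a named gene changed. A block within only the day 14 and day 7 groups, added after seeing the data, gave 1261, with 7 of the 1264 lost and 4 gained, and of the named genes Lyz2 lost its call. The sign of a list's median changed for 13 lists with median centring, 12 with ribosomal, 7 with housekeeping and 5 with detected-gene centring. It changed for 0 in the authors' values and with no background correction. The setting with no background correction is still quantile normalized, so its unchanged signs do not test an overall shift. Of the genes named, the call was lost for 30 with the authors' values, where differences were smaller, and for 23 with median centring. No called gene changed direction with an array left out or with the block, and no called gene named here did under any of these settings, but uncalled ones did. Median centring turned Acta2 to 0.21, Kit to 0.0064, Sox9 to 0.34 and Zbtb16 to 0.38, and ribosomal centring turned Acta2 to 0.18, Sox9 to 0.32 and Zbtb16 to 0.36. Housekeeping centring turned Acrv1 to -0.014 and Actb to -0.27, and detected-gene centring Actb to -0.082. With day 6 as the earlier time Actb was -0.93, Amh 0.89 and Sox9 0.18. Leaving out 1 array put Actb between -0.063 and 0.19 and Sox9 between -0.33 and 0.0044. The cause of these changes was not tested. Arrays limit dim genes, since 1153 of the genes tested were below detection in both groups.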
